A study of Mus musculus with 7 samples.

Results

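The 28 genes described here encode enzymes of cholesterol synthesis, the sterol regulatory element-binding protein (SREBP) system that controls them, and 5 proteins of sterol transport, storage and turnover of uptake. They were taken by gene symbol from the 50686 genes of each library, without a threshold on any measured value, from a list drawn up with earlier results of these data known. All 28 were found once in every library, and all 28 passed the filter on low values (over 10 expected counts in 1 or more libraries). Of these, 26 lie on autosomes and 2, Nsdhl and Ebp, on chromosome X.

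The libraries came from Bodipy+ microglia, brain macrophages that stain with a dye for neutral lipid, sorted by FACS from C57BL/6 male mice 4 days after a 45 min occlusion of the middle cerebral artery. Young mice were 3 to 4 months old (n = 4, coded 14C, 18C, 23C and 29C) and old mice 21 to 22 months (n = 3, coded 2posI, 3posI and 4posI). Both ages had ischemia, the same sort and no drug, so the comparison is of age within lipid-rich microglia after ischemia, and libraries from sham-operated mice or Bodipy- cells were not analysed here. The sort gate takes microglia by surface markers and dye, and the libraries are bulk RNA, in which fewer cells of a type and less RNA per cell cannot be told apart.

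Cells make cholesterol from acetyl-CoA through HMG-CoA, mevalonate, farnesyl diphosphate, squalene and lanosterol. When sterol in the endoplasmic reticulum is low, SCAP carries SREBP to the Golgi, where proteases release the part that enters the nucleus and switches on these enzymes, and when sterol is high the INSIG proteins hold SCAP back. In adult brain, where plasma lipoproteins do not enter, cholesterol is made locally, and microglia take up much sterol as myelin and cell debris, which leaves lysosomes through NPC1 and is stored as esters made by SOAT1.

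Depth ranged from 36574083 to 53002386 expected counts per library, and the lowest expected count of any of the 28 genes in any library was 97. Levels are given as CPM (expected counts scaled to each library's size with TMM factors) for comparisons between ages and as TPM (transcript abundances, which account for length) for comparisons between genes. Microglial markers were abundant in every library, their 10 genes summing to 21548 to 31414 CPM in young and 11639 to 25517 CPM in old mice. Old library 3posI stood apart. Its microglial sum was the lowest, 8 of the 10 microglial markers were lowest in it, and the 8 monocyte and neutrophil markers summed to 2001 CPM against 23.7 to 144 CPM in the other 6 libraries. The 6 border-associated macrophage markers summed to 1081 CPM in 3posI against 69.7 to 364 CPM elsewhere. Of the monocyte and neutrophil markers 2 of 8 had every old library above every young one, as did 1 of 8 neuronal and 1 of 8 lymphocyte markers. Over all genes tested this share was 8.67%. Every old library was below every young one in 2 of 8 endothelial and pericyte, 1 of 10 microglial and 1 of 8 neuronal markers. Over all genes tested that share was 9.07%. The 8 neuronal markers summed to 1.51 to 4.41 CPM. The 10 oligodendrocyte and myelin markers summed to 124 to 146 CPM in young and 130 to 170 CPM in old libraries. The 8 astrocyte markers summed to 116 to 162 CPM in young and 81.1 to 219 CPM in old libraries, with 2posI the highest. The 8 endothelial and pericyte markers summed to 62 to 139 CPM in young and 53.5 to 83.8 CPM in old libraries. The 8 lymphocyte markers summed to 3.22 and 3.15 CPM in old 3posI and 4posI, above the 0.268 to 0.649 CPM of the other 5 libraries, and 7 of them were under 1 CPM in every library. Values without 3posI are given beside several of the results, and the part of these markers in any result was not tested.

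Promoter windows of the genes that the results turn on are shown first, because SREBP acts through short sites close to the start of its targets. The windows come from RefSeq (GRCm38.p6) and run from 250 bases before to 50 bases after an annotated start, and 23 of the 28 genes had a window. Stard4, Fdps, Fdft1, Sqle and Npc1 had none, so their promoters were not read. Shown is the most upstream window of Hmgcs1, which alone of the 23 genes held the exact letters TCACNCCAC, a form of the sterol regulatory element. Variants of these letters were not searched, so the other genes may hold other forms. The most upstream windows of 5 genes whose old and young libraries did not overlap are also shown. Capitals mark the sterol regulatory element form TCACNCCAC or the CCAAT box, on either strand (GTGGNGTGA or ATTGG), and the 2 motifs do not overlap in these windows.
Hmgcs1 chr13:119690101-119690400 (+ strand): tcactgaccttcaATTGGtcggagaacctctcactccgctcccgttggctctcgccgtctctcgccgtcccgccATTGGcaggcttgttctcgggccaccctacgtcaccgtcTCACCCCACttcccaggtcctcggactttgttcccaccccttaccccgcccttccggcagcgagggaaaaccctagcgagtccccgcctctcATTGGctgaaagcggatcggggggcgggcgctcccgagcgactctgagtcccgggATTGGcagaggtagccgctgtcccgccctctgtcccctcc
Pmvk chr3:89454291-89454590 (+ strand): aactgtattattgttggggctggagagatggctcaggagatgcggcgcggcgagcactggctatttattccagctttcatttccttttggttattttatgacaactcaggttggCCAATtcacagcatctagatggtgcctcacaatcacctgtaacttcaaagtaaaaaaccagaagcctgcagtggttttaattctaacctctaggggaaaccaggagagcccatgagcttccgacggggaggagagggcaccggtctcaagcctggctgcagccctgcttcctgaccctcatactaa
Ebp chrX:8193463-8193762 (- strand): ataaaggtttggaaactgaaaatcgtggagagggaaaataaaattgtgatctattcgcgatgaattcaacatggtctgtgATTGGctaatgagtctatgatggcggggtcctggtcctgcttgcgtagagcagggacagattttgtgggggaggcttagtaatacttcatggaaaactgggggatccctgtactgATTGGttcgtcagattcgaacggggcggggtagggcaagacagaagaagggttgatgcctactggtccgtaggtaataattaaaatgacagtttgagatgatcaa
Dhcr7 chr7:143822917-143823216 (+ strand): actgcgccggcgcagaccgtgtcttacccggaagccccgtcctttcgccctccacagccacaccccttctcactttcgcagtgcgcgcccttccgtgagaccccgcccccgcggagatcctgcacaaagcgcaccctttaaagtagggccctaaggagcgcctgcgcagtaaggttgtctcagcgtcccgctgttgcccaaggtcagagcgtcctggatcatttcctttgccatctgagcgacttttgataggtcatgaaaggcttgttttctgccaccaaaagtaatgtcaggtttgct
Srebf1 chr11:60222532-60222831 (- strand): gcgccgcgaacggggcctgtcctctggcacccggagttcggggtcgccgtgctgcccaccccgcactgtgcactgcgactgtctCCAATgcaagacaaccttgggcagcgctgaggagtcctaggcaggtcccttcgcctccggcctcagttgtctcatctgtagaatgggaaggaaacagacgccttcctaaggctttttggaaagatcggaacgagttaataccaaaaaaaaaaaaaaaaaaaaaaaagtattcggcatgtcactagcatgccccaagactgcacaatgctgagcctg
Scap chr9:110333038-110333337 (+ strand): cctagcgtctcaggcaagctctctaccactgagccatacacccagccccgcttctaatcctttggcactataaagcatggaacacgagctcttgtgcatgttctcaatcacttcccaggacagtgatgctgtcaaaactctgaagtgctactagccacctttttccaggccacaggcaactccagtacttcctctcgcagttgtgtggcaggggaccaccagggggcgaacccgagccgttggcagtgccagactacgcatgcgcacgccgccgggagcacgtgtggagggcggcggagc
The element in Hmgcs1 read TCACCCCAC and began 137 bases before the annotated start, with 4 CCAAT boxes in the same window. The windows shown for Ebp held 2 CCAAT boxes, those for Pmvk and Srebf1 held 1 each, and those for Dhcr7 and Scap held none of these letters. Over the 23 genes, TCACNCCAC was found in 1 (4.35%) against 1.44% of the 27025 genes with a window, and the E-box form TCACGTGA, the same on both strands, in 0 against 1.12%. The CCAAT box was found in 21 of 23 genes (91.3%) against 41.1% of all genes with a window. These are counts of letters in a short window and say nothing of whether a factor binds there.

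Across the 28 genes, edgeR's quasi-likelihood test called no difference between old and young after Benjamini-Hochberg adjustment over all genes tested. Of the 26 autosomal genes 0 were called, against 0.803% of all 17559 genes tested, and 5 of 26 (19.2%) had an unadjusted p under 0.05, against 18.9% of all genes. limma-voom also called 0 of 26, and DESeq2 called 4 (Npc1, Scap, Dhcr7 and Fdps), against 7.99% of all genes. DESeq2 made more false calls than edgeR on simulated counts. Those counts were drawn with edgeR's own dispersions and library factors, a setting that may favour edgeR, so they cannot rank the 2 tests. The DESeq2 calls are therefore given as counts beside edgeR's. Both X-linked genes were read from a fit that kept chromosomes X, Y and M, where 0 of 2 were called against 0.754% of 18173 genes. The median log2 fold change of the 26 was -0.11 (-0.0536 without 3posI), with 11 higher and 15 lower in old mice, and over all genes it was -0.014 with 48.8% higher. In 3 of 26 genes (Pmvk, Fdps and Npc1) all old libraries lay above all young ones, against 8.67% of all genes, and in another 3 (Dhcr7, Srebf1 and Scap) all old libraries lay below, against 9.07%. Ebp, on chromosome X, was also higher in every old library. The edgeR shares with an unadjusted p under 0.05 or apart between ages (11.5% in each direction) were thus near those over all genes, and the values that follow are given as measured. An exon overlapped another annotated gene in 10 of the 28 genes, and the overlaps of the genes described below are named with them.

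**Figure D1:**
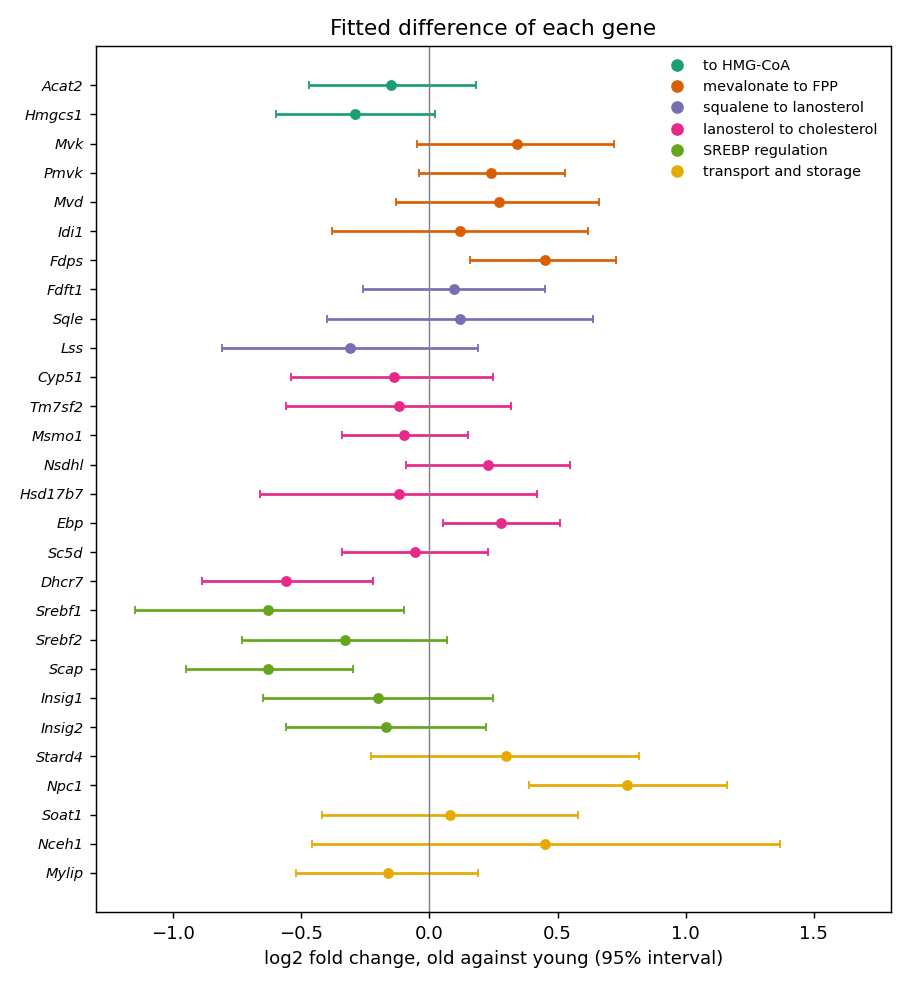
Fitted log2 fold change of each gene, old against young, with a 95% interval derived from edgeR's test, ordered and coloured by role. The intervals of Fdps, Ebp and Npc1 lie above 0 and those of Dhcr7, Srebf1 and Scap below 0, and none of the 28 genes passed the adjusted threshold.

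The first committed steps were represented by Acat2, which joins acetyl-CoA units, and Hmgcs1, which makes HMG-CoA. Hmgcs1 had 36.1, 39.0, 41.2 and 37.2 CPM in young libraries 14C, 18C, 23C and 29C and 31.6, 36.3 and 26.1 CPM in old libraries 2posI, 3posI and 4posI. Only 3posI reached into the young range, and the log2 fold change came to -0.29 (SE 0.136, adjusted p = 0.293), or -0.41 to -0.18 with 1 library left out. An exon of Hmgcs1 overlaps Gm48342 on the opposite strand. Acat2 had 15.1 ± 1.19 CPM (SD, n = 4) in young and 13.6 ± 1.55 CPM (SD, n = 3) in old mice.

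All 5 enzymes from mevalonate to farnesyl diphosphate had a log2 fold change above 0, from 0.12 to 0.45, and none was called. Fdps (chr3:89093588-89101959, minus strand), which makes farnesyl diphosphate, the branch point towards sterols and prenylated proteins, had 19.4, 20.7, 19.6 and 23.7 CPM in the young libraries and 26.4, 28.6 and 30.3 CPM in the old ones. The lowest old library was above the highest young one, and the fold change was 1.36 (log2 fold change 0.45, SE 0.125, adjusted p = 0.125). An exon of Fdps overlaps Gm43738 on the same strand, and its expected count was whole, within 0.001, in only 2 of 7 libraries, so part of its reads were shared out by the authors' counting.

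Pmvk (chr3:89454541-89469013), the phosphomevalonate kinase, had 15.5, 15.3, 15.7 and 17.4 CPM in young and 17.4, 19.2 and 20.1 CPM in old libraries. Young 29C and old 2posI were equal at the precision printed, so the separation of the ages was slight (log2 fold change 0.24, SE 0.126, adjusted p = 0.334). In TPM the ages overlapped, with 18.7 TPM in 2posI against 19.3 to 19.9 TPM in young libraries, and the log2 fold change was 0.14. Mvk, the mevalonate kinase, had 5.91 to 7.43 CPM in young and 7.33 to 8.97 CPM in old mice. Mvd, which decarboxylates to isopentenyl diphosphate, had 9.38 to 11.3 CPM in young mice and 11.4, 15.2 and 10.4 CPM in old ones, and its log2 fold change of 0.27 was 0.091 without 3posI. Idi1, the isomerase of the same diphosphate, had a log2 fold change of 0.12 that changed sign without 2posI (-0.026) and on the TPM scale (-0.013), and an exon of it overlaps Gm48574 on the opposite strand.

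The squalene steps differed less than their spread. Fdft1, the squalene synthase, had 10.1 ± 1.02 CPM in young and 10.8 ± 1.08 CPM in old mice, and one of its exons overlaps Ctsb on the opposite strand. Sqle, the squalene epoxidase, had 4.25 ± 0.768 CPM and 4.61 ± 0.76 CPM, and its log2 fold change of 0.12 was -0.027 without 2posI. Lss, which closes the rings to lanosterol, had 5.37, 7.03, 5.84 and 8.58 CPM in young and 5.90, 4.75 and 5.59 CPM in old libraries (log2 fold change -0.31, 95% interval -0.81 to 0.19), and an exon of it overlaps 4930483K19Rik on the opposite strand.

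The 8 enzymes from lanosterol to cholesterol split between directions, 2 with a log2 fold change above 0 and 6 below, and 0 were called. Dhcr7 (chr7:143823145-143848410), the reductase that forms cholesterol in its last step, had 32.7, 31.7, 37.9 and 34.6 CPM in young and 25.4, 18.8 and 25.7 CPM in old libraries. Every old library was below every young one, with 3posI the lowest, and the fold was 0.68 (log2 fold change -0.56, SE 0.147, adjusted p = 0.112). Without 3posI the log2 fold change was -0.42.

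Ebp (chrX:8185329-8193512), the sterol isomerase, had 47.3, 47.0, 49.6 and 53.1 CPM in young and 60.7, 60.0 and 58.7 CPM in old libraries, the tightest old group of the 7 genes that were apart. Its log2 fold change came to 0.28 (SE 0.1, adjusted p = 0.19 in the fit with chromosome X), and on the TPM scale, where the ages overlapped, it was 0.14. Nsdhl, a decarboxylating dehydrogenase that removes methyl groups at C4, had 11.1 to 12.8 CPM in young and 12.7 to 15.3 CPM in old mice. Msmo1, the C4-methyl oxidase, varied least among young libraries (coefficient of variation 3.83%) and had 28.4 ± 1.09 CPM against 26.5 ± 1.24 CPM in old mice. Cyp51, the lanosterol demethylase, had 17.7 ± 2.29 CPM and 16.0 ± 3.19 CPM (log2 fold change -0.14, or -0.064 without 3posI), and an exon of it overlaps Akap9 on the opposite strand. Tm7sf2, a sterol reductase, Hsd17b7, a sterol ketoreductase, and Sc5d, the desaturase that precedes Dhcr7, had log2 fold changes of -0.12, -0.12 and -0.056, each with an interval that spanned 0, and an exon of Tm7sf2 overlaps Vps51 on the same strand. Hsd17b7 changed sign without 3posI (0.015), and Tm7sf2 ranged from -0.29 without 3posI to -0.033 without 4posI.

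All 5 genes of the SREBP system had a log2 fold change below 0, from -0.63 to -0.17, and none was called. Scap (chr9:110333288-110384950), the sterol-sensing escort of SREBP, had 42.4, 40.4, 40.8 and 34.9 CPM in young and 22.4, 24.4 and 30.2 CPM in old libraries. No old library reached the lowest young one, 29C, and the fold was 0.648 (log2 fold change -0.63, SE 0.141, 95% interval -0.95 to -0.30, adjusted p = 0.0803). The log2 fold change stayed between -0.76 and -0.54 when each library was left out in turn. Scap was among the 4 genes called by DESeq2 and, as 1 of 26 genes against 1.21% of all genes, passed the threshold of edgeR when the library-wise effective length of the genes was an offset (log2 fold change -0.82, adjusted p = 0.0447).

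Effective length, the mean length of the transcripts to which the authors' counting assigned the reads, moved with age for Scap. It was 3325 to 3407 bases in young and 3681 to 4056 bases in old libraries, and Cyp51 was the only other of the 28 genes whose effective lengths did not overlap (2049 to 2378 bases against 2495 to 2614 bases). An exon of Scap also overlaps 5830462I19Rik on the opposite strand, and the labels describe the libraries as non-stranded. The part of transcript choice in the difference of Scap was not tested.

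Srebf1 (chr11:60199089-60222581), which encodes the SREBP-1 isoforms and acts mainly on fatty acid genes, had 55.8, 54.0, 67.3 and 48.3 CPM in young and 23.4, 47.2 and 38.9 CPM in old libraries. Old 3posI lay just under young 29C, and 2posI was far below the rest. The log2 fold change came to -0.63 (SE 0.231, adjusted p = 0.195), and it ranged from -0.39 without 2posI to -0.85 without 3posI. Removing the trend of GC content gave -0.42. Its exons overlap Rai1 on the opposite strand and Mir6922 on the same strand. Srebf2, which encodes the main activator of cholesterol synthesis, had 25.3, 31.8, 21.1 and 22.2 CPM in young and 17.0, 21.3 and 21.5 CPM in old libraries, so the ages overlapped through 23C (log2 fold change -0.33, SE 0.176, adjusted p = 0.343). It was -0.19 without 18C and -0.41 without 23C.

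Insig1 and Insig2 encode the proteins that retain SCAP, and Insig1 is itself an SREBP target. Insig1 had 40.7, 43.6, 24.3 and 34.1 CPM in young and 28.6, 33.4 and 30.9 CPM in old libraries, with young 23C the lowest of all 7. Its young libraries differed by 1.79-fold, more than the ages did (log2 fold change -0.20, 95% interval -0.65 to 0.25), and the value was -0.087 without 18C and -0.35 without 23C. Insig2 had 31.6 ± 1.81 CPM in young and 28 ± 7.03 CPM in old mice, and its log2 fold change of -0.17 was -0.021 without 3posI.

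**Figure D2:**
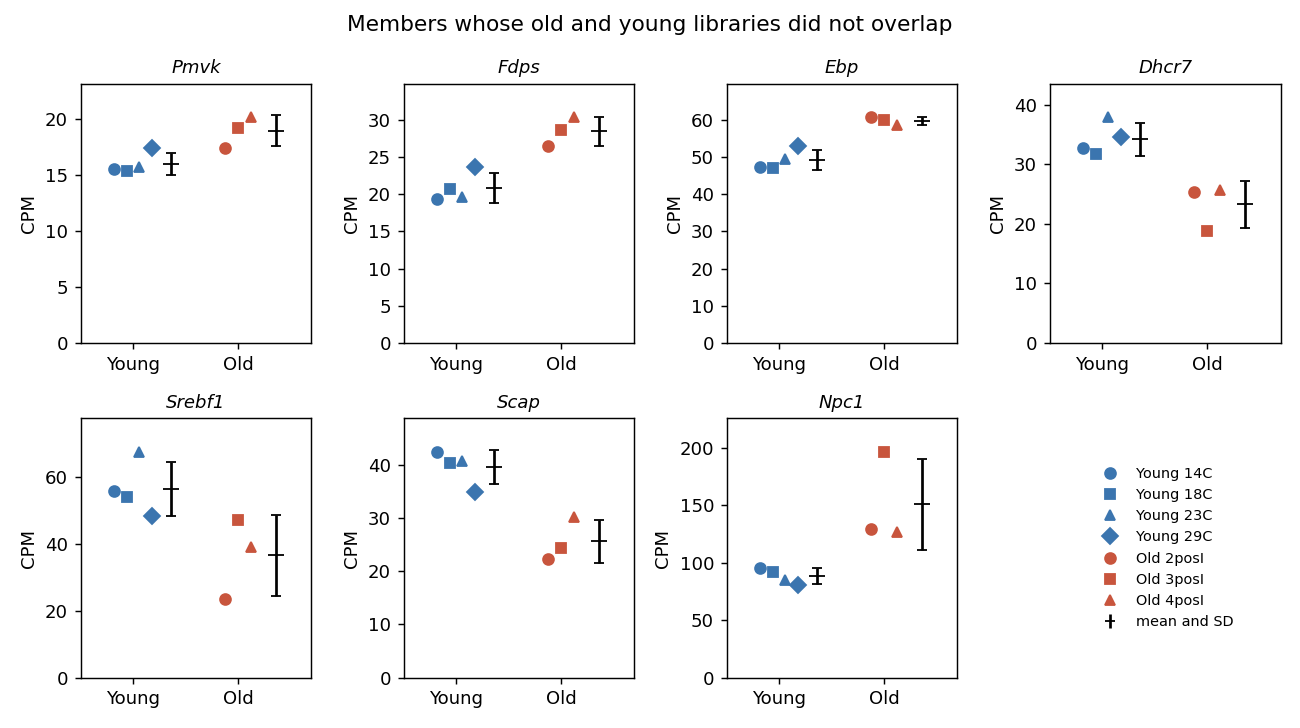
CPM of the 7 genes whose old and young libraries did not overlap, 1 point per library with the mean and SD of each age beside it, on axes that start at 0. Pmvk, Fdps, Ebp and Npc1 are higher in every old library and Dhcr7, Srebf1 and Scap lower, and old 3posI has the highest Npc1 (196 CPM) and the lowest Dhcr7 (18.8 CPM).

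Of the 5 genes of sterol transport, storage and uptake turnover, 4 had a log2 fold change above 0 and none was called. Npc1, which exports cholesterol from lysosomes, had 95.7, 92.1, 85 and 80.7 CPM in young and 129, 196 and 127 CPM in old libraries. Every old library was above every young one, and the fold was 1.71 (log2 fold change 0.77, SE 0.17, 95% interval 0.39 to 1.16, adjusted p = 0.0753). Without 3posI, the library rich in monocyte and border-associated macrophage markers, the log2 fold change was 0.54. Exons of Npc1 overlap Rmc1 and Gm15956 on the opposite strand, and its expected counts were whole, within 0.001, in 0 of 7 libraries.

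Soat1, which esterifies cholesterol for storage in lipid droplets, had 277, 217, 307 and 281 CPM in young and 230, 396 and 232 CPM in old libraries. The old group held both a library above all young ones, 3posI, and libraries near the lowest young one, 18C, and the log2 fold change of 0.081 became -0.23 without 3posI. Nceh1, a hydrolase of cholesterol esters, had 119, 88.2, 194 and 93.1 CPM in young and 104, 290 and 115 CPM in old libraries. It was highest in 3posI among old and in 23C among young mice, and these libraries had the lowest Tmem119 of their age, a marker of homeostatic microglia (850 CPM and 1027 CPM, against 1670 to 2269 CPM in the other 5 libraries). Tmem119 was chosen after its values were seen, and a relation between Tmem119 and Nceh1 was not tested. The log2 fold change of Nceh1 was 0.45 with 3posI and -0.18 without it. Stard4, a sterol carrier, had 3.03 ± 0.413 CPM in young and 3.72 ± 0.577 CPM in old mice, and Mylip, a ubiquitin ligase induced through LXR, had 166 ± 18.8 CPM and 148 ± 26.2 CPM (log2 fold change -0.16, or -0.029 without 3posI).

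**Figure D3:**
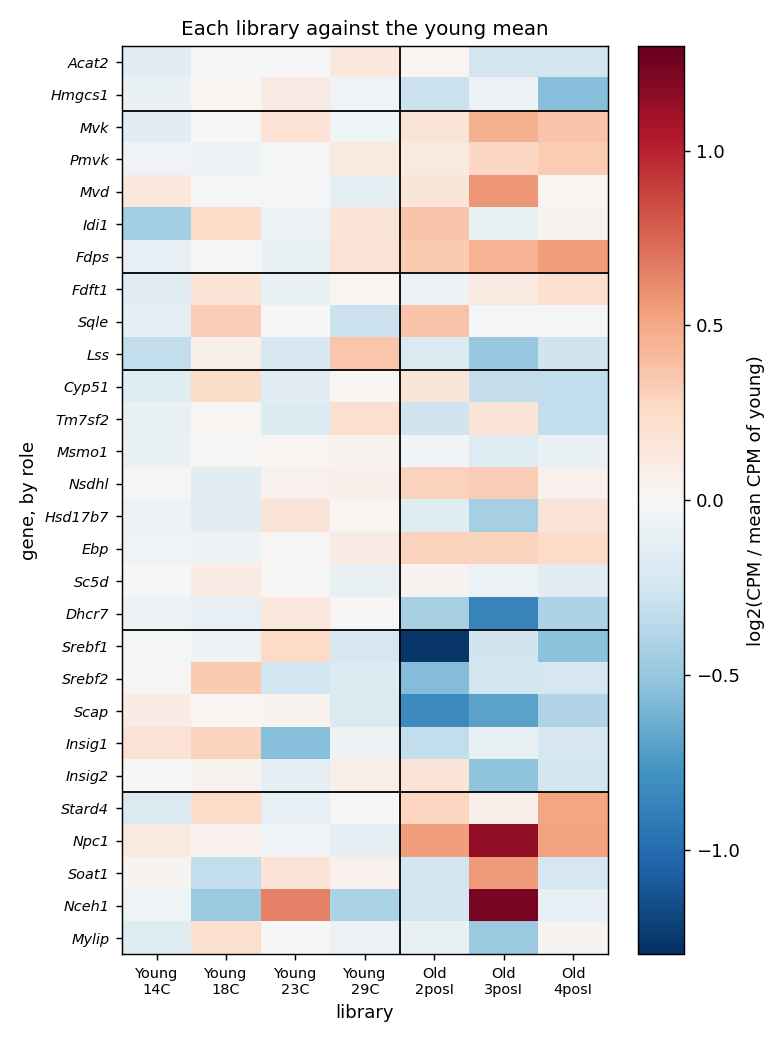
Colour gives log2 of each library's CPM over the mean CPM of the young libraries, for the 28 genes (rows, by role, black lines between roles) in 4 young and 3 old libraries (columns). Old 3posI has the highest values of Npc1 (196 CPM) and Nceh1 (290 CPM), and old 2posI the lowest of Srebf1 (23.4 CPM).

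Levels between genes were compared in TPM. Soat1 was the most abundant of the 28 in both ages, with 175 ± 26.5 TPM in young and 170 ± 59.4 TPM in old mice. Mylip (76.7 ± 11 TPM), Ebp (75.7 ± 4.66 TPM) and Nceh1 (67.7 ± 33.4 TPM) followed in young mice and lay within their spread of each other. Ebp alone held a large part of the enzyme transcripts, since the 18 enzymes summed to 265 ± 11.4 TPM in young and 261 ± 17.7 TPM in old mice, and without Ebp to 189 ± 9.07 TPM and 177 ± 11.8 TPM. The lowest were Sqle (2.2 ± 0.49 TPM), Hsd17b7 (1.89 ± 0.37 TPM) and Stard4 (1.75 ± 0.429 TPM) in young mice, which also lay within their spread of each other. Insig2 (27.2 ± 3.45 TPM) exceeded Insig1 (19 ± 4.88 TPM) in the young mean, though 14C had 22.2 TPM of Insig2 and 22.1 TPM of Insig1. Srebf1 (26.6 ± 5.8 TPM) was above Srebf2 (7.08 ± 1.56 TPM) in all 7 libraries. Npc1 moved from the eighth place in young mice to the fifth in old mice, with 24.2 ± 2.76 TPM and 38.2 ± 9.36 TPM.

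**Figure D4:**
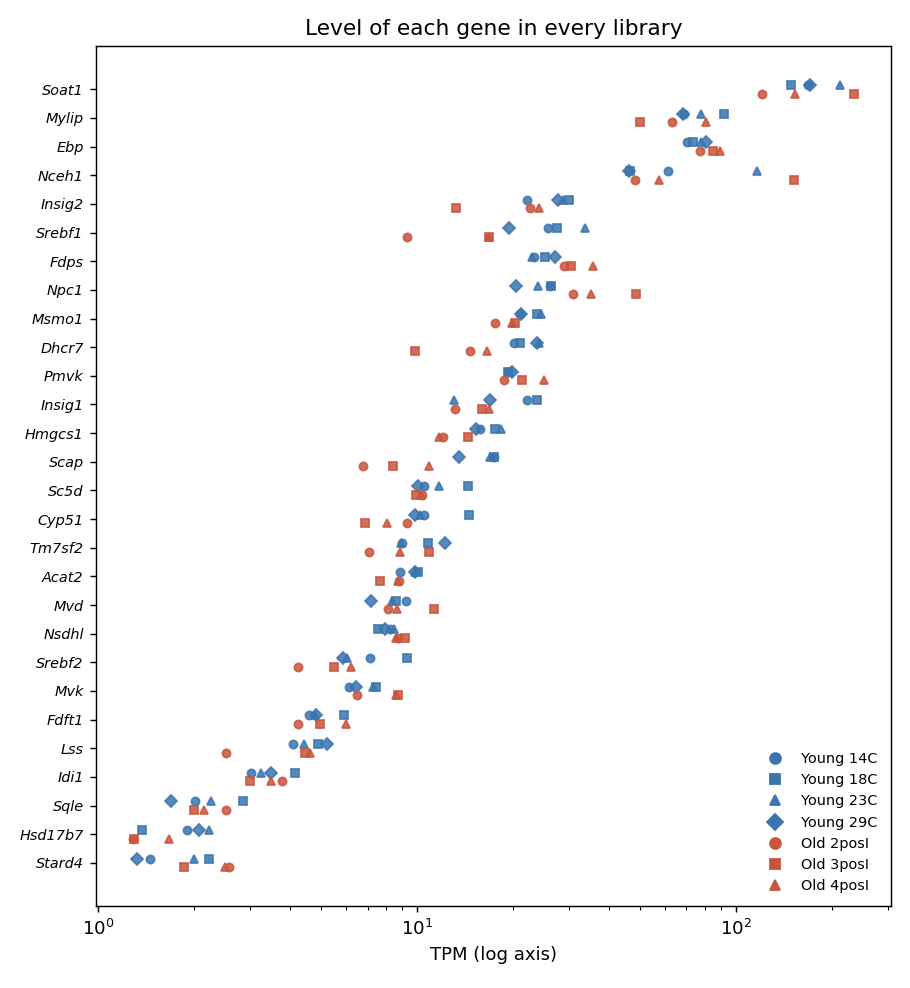
TPM of each gene in each of the 7 libraries on a log axis, ordered by the young mean, with young points above old ones in each row. Soat1 has the highest mean (121 to 236 TPM over the libraries), Stard4 the lowest mean in young and Hsd17b7 in old mice, and Scap (13.5 to 17.5 TPM in young, 6.75 to 10.9 TPM in old mice) shows the ages apart.

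TPM was also summed by step. Acat2 and Hmgcs1 summed to 24.7 to 28.1 TPM in young and 20.4 to 22.2 TPM in old libraries. The 5 enzymes from mevalonate to farnesyl diphosphate summed to 61.0, 64.7, 61.2 and 64.0 TPM in young and 66.0, 74.8 and 81.7 TPM in old libraries. The 5 genes of the SREBP system summed to 94.6, 108, 98.3 and 83.7 TPM in young and 56.1, 60.0 and 74.8 TPM in old libraries. In these 3 sums the ages did not overlap. They overlapped in the squalene steps (10.7 to 13.6 TPM in young, 9.25 to 12.8 TPM in old libraries) and in the 8 later enzymes (152 to 168 TPM and 146 to 163 TPM). No test was made of a sum, and no share over sums of other genes was taken. Of the genes in the 3 sums, Fdps, Srebf1 and Scap were apart in both CPM and TPM. Pmvk was apart in CPM only and Acat2 and Hmgcs1 in TPM only. Mvk, Mvd, Idi1, Srebf2, Insig1 and Insig2 overlapped in both. On the TPM scale 2 of 26 genes were higher in every old library (Fdps and Npc1), against 6.26% of all genes, and 7 of 26 lower (Acat2, Hmgcs1, Cyp51, Msmo1, Dhcr7, Srebf1 and Scap), against 11.2%. None was called by limma on log2(TPM + 1). With a pseudocount of 1 the median log2 fold change was -0.183 over the 26 genes and -0.0677 over all genes, and with a pseudocount of 0.1 it was -0.201 and -0.128.

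Genes around the pathway were read from lists of other targets and partners. For the counts of each list, edgeR called 0.803% of all genes, DESeq2 7.99% and the effective-length offset 1.21%. Over all genes 48.8% had a log2 fold change above 0. Quality weights called 318 of 17559 genes, the 2 TPM scales 64 and 71, and the fit without a filter 286 of 27481. Acly, which supplies cytosolic acetyl-CoA, had 199 ± 24.7 CPM in young and 171 ± 14.8 CPM in old mice (log2 fold change -0.21, adjusted p = 0.441). Of 10 fatty acid synthesis targets of SREBP-1, 0 were called (1 with DESeq2) and 5 had a log2 fold change above 0. Acaca, the acetyl-CoA carboxylase, had 8.41 to 11.8 CPM in young and 12.7 to 16.2 CPM in old mice (log2 fold change 0.58, adjusted p = 0.132), while Scd2, a fatty acid desaturase, had 71.2 ± 7.06 CPM and 60.5 ± 3.41 CPM.

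Of 9 proteases and degradation factors of the SREBP system, 0 were called (4 with DESeq2, and 1 with quality weights, either TPM scale or the effective-length offset) and 6 had a log2 fold change below 0. Mbtps1, the site-1 protease that cuts SREBP in the Golgi, had 69.4, 73.9, 70.8 and 73.5 CPM in young and 56.8, 48.5 and 54.3 CPM in old libraries (log2 fold change -0.43, adjusted p = 0.0927). Rnf145, a ubiquitin ligase of the endoplasmic reticulum, had 73.9 to 82.4 CPM in young and 47.6 to 56.3 CPM in old mice (log2 fold change -0.56, adjusted p = 0.0591). Both genes were named for their small p, so a lack of overlap between ages adds no further evidence. Of the 9 genes, 3 were lower in every old library, Mbtps1 and Rnf145 among them, against 9.07% of all genes. In 1, Ubxn4, every old library was higher, against 8.67% of all genes. Ubxn4 had 73.5 ± 3.79 CPM in young and 105 ± 16.8 CPM in old mice (log2 fold change 0.52, adjusted p = 0.0979). Of 12 genes of the isoprenoid branch, 0 were called (3 with DESeq2). Nus1, a subunit of the enzyme that makes dolichol precursors, had 15.4 to 22.2 CPM in young and 25.6 to 46.7 CPM in old mice (adjusted p = 0.1), and Zmpste24, a protease of prenylated proteins, had 76.7 to 93.0 CPM and 62.9 to 68.4 CPM (adjusted p = 0.125).

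Of 9 oxysterol and LXR genes, 0 were called (1 with DESeq2). Lpcat3, a phospholipid acyltransferase driven by LXR, had 159 ± 11.7 CPM in young and 116 ± 12.1 CPM in old mice (log2 fold change -0.45, adjusted p = 0.121). Nr1h3, which encodes LXR alpha, had 1.45 to 4.61 CPM in young mice and 4.56, 35.7 and 5.20 CPM in old ones, so its value was set by 3posI. Of 10 genes of endolysosomal and membrane contact transport, 1 was called (3 with DESeq2, 2 with quality weights or without a filter). Osbp, which exchanges sterol for phosphoinositide at contacts of the endoplasmic reticulum with the Golgi, had 8.14, 8.55, 6.30 and 10.5 CPM in young and 25.9, 25.1 and 23.6 CPM in old libraries. It was higher in every old library (log2 fold change 1.57, SE 0.179, adjusted p = 0.0236), and it kept the call in 3 of 7 fits that left out 1 library, losing it without 14C, 18C, 29C or 2posI (adjusted p up to 0.108), while its log2 fold change stayed between 1.46 and 1.7. Gramd1a, a carrier of plasma membrane sterol to the endoplasmic reticulum, had 255, 259, 258 and 245 CPM in young and 123, 127 and 183 CPM in old libraries (log2 fold change -0.81, adjusted p = 0.0591).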

How the data were processed

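Libraries of Bodipy+ microglia from 3 old and 4 young males were compared, with age groups and codes from the sample labels and sex, day and sort from the study's methods. The authors used skewer for trimming, STAR for alignment to GRCm38 and RSEM for quantification on GENCODE m15, and no source read here gives the STAR or RSEM version. The deposited expected counts are not normalized, the deposited TPM values are scaled by the authors within each library, and the effective length of each gene was also deposited. Each library is labelled as a separate sample, so p-values measure the spread between these samples. PCR copies were not separated by molecular identifiers in any source used here, so counts are reads.

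Expected counts were rounded, genes needed more than 10 in at least 1 library, and chromosomes X, Y and M were removed (17559 genes, or 18173 with them). edgeR 4.0.16 in R 4.3.3 gave TMM factors (0.952 to 1.05) and the quasi-likelihood test with age as the only term. The SE was derived as the absolute log2 fold change over the square root of that test's F. The 95% intervals were built from this SE and the t distribution, and edgeR itself does not return them. Calls have a Benjamini-Hochberg adjusted p under 0.05 over all genes. Coordinates came from GENCODE vM21, which lacks 224 of the 50686 identifiers. The members, lists and tests were chosen with earlier results of these data known. All 28 members are named, and from each other list the 2 tested genes with the smallest p and any called gene, except for results not reported here, while Tmem119 was added after its values were seen. Tried beside it were voom from limma 3.58.1, plain and with quality weights, DESeq2 1.42.0, limma on log2(TPM + 1) or log2(TPM + 0.1), RLE, upper-quartile or no factors, an effective-length offset, trends of length or GC content removed, other filters, X, Y and M kept, and each library left out. The scripts were tested on simulated data. A stop rule of that step on power was narrowly missed at first and, after its value was seen, was replaced by rules on fold recovery and false calls.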

Additional observations from a re-analysis of the deposited data

How the results depend on the processing

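The count of members called was 0 of 26 in edgeR, 4 with DESeq2 and 1 with the effective-length offset, and 0 in the other alternatives, each library left out included. The members' median log2 fold change of -0.11 was -0.0561 with voom quality weights, -0.183 and -0.201 on log2(TPM + 1) and log2(TPM + 0.1), and -0.00962 with the length trend removed, and from -0.121 to -0.0497 with 1 library left out. The 6 members apart between ages became 6 to 11 with 1 library left out, 11 of them without 2posI. Fewer libraries are more easily apart, and no share over all genes was taken in these fits. The rise therefore cannot be read as a clearer difference between ages. Over all genes the 141 calls (100 higher) became 318 with quality weights, 1403 with DESeq2, 213 with the offset, 286 without a filter, 64 (32 higher) and 71 (34 higher) on the TPM scales, and 1 to 159 with 1 library left out (1 without 14C, 18C or 2posI, 2 without 29C, 14 without 23C, 85 without 4posI). Of 614 single-gene values under an alternative, 597 kept direction and side of the threshold, 5 passed it and 12 changed sign. The sign changes were Idi1 (-0.0132 and -0.016 on TPM + 1 and TPM + 0.1, -0.0263 without 2posI to 0.219 with 1 library left out), Sqle (-0.0269 without 2posI, up to 0.246), Hsd17b7 (0.0149 without 3posI, down to -0.293), Sc5d (0.0379 with the length trend removed), Nceh1 (-0.176 without 3posI, up to 0.759) and Soat1 (-0.0731 with quality weights, -0.0851 and -0.0858 on the TPM scales, -0.00839 without 18C, -0.227 without 3posI, up to 0.216). The causes were not tested. No paired analysis was possible because the ages share no replicate numbers. A missed call with 3 against 4 libraries does not show equal levels.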
